A study of Mus musculus with 32 samples.

Results

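To examine what the sequence control oligoribonucleotide itself did to neurons at an early time, cultured mouse cortical neurons exposed to Mut.oligo for 6 h were compared with untreated neurons of the same time point by RNA-seq. The comparison was defined by the labels alone and holds 8 of the 32 libraries of the series, 4 labelled Mut.oligo and 4 untreated. All cells were wild-type (WT) primary cortical neurons, which the study's methods take from C57BL/6 mice. They were kept in Neurobasal medium with B27 supplement, glutamine and antibiotics. The treated cultures received Mut.oligo in the medium, an oligoribonucleotide with a mutated let-7b sequence given by the study at 10 µg/mL, and the untreated cultures received nothing, so no library of this comparison received a carrier or an unrelated RNA. The remaining 8 libraries of 6 h carried microRNA labels (4 of miR-124-5p, 4 of miR-92a-1-5p), and a second set of 16 libraries was collected after 5 d.

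The labels give each library an experiment batch, here called A to G for the 7 batches of 6 h. Untreated libraries 1, 2, 3 and 4 came from batches D, B, A and E, and Mut.oligo libraries 1, 2, 3 and 4 from batches E, F, D and G. The counts hold no direct reading of the added RNA, so these labels could not be checked against them. Whether the names Mut.oligo and miR-124-5p were exchanged between libraries could not be settled, and every value below is that of the libraries labelled Mut.oligo. Only batches D and E held both conditions. Batch G held Mut.oligo library 4 alone, so a fit with the batch as a covariate takes no information from that library.

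As background, extracellular single-stranded RNA, including some microRNAs, can be sensed in the endosome by Toll-like receptors 7 and 8, which signal through Myd88 and Irak4 to NF-kB and cytokine genes. A microRNA that reaches an Argonaute protein instead lowers mRNAs that carry a match to its seed. Neurons also hold a separate set of rapidly responding genes, the immediate early genes, whose transcription follows synaptic activity and calcium entry through CREB, SRF and MEF2, and which are followed by secreted and synaptic effectors such as Bdnf.

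The sequences that frame the comparison are given first. The sequence of Mut.oligo is not printed here, but in the study's methods its bases 2 to 8 are the same as those of let-7b. The parent microRNA, mouse let-7b-5p, lies at chr15:85707325-85707346 on the plus strand of GRCm38.p6 (RefSeq), and its seed, bases 2 to 8, is in capitals.
let-7b-5p: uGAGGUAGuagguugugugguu
Below are stretches of the RefSeq promoters of 3 immediate early genes, shown because CREB half-sites are a feature that activity-regulated promoters share. Of these, Nr4a1 and Npas4 passed the threshold described below in the edgeR fit with the experiment batch, and Fos did not. Capitals mark each match to the half-site CGTCA, read on either strand (TGACG on the other). The stretches are chr15:101266598-101266825 on the plus strand for Nr4a1, chr19:4990121-4990165 on the minus strand for Npas4, and chr12:85473746-85473843 on the plus strand for Fos, all GRCm38.p6.
Nr4a1: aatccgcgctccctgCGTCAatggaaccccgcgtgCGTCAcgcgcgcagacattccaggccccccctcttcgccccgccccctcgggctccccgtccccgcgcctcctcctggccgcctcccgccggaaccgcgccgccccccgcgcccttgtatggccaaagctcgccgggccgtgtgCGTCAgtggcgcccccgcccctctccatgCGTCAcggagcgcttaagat
Npas4: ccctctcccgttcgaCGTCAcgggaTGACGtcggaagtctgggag
Fos: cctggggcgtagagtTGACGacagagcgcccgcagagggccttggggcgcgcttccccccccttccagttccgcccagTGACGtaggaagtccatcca
The Nr4a1 promoter held 4 half-sites, and those of Npas4 and Fos held 2 each. In windows from 250 bases before to 50 after the start, the half-site was present in 20.8% of 32851 promoters and in at least 1 promoter of 32.7% of 12974 tested genes with an entry. Among the immediate early genes with an entry, 13 of 15 held it, and among the activity-regulated effectors 17 of 24. The full palindrome TGACGTCA, which contains the half-site, was in 1.79% of the promoters, in 1 of those 15 genes and in 5 of those 24. The promoters of Acan and Cacng5, described below, held no match in this window.

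Between 24514090 and 37732234 counts were assigned to genes per library, which put 3 counts at 0.0795 to 0.122 CPM (counts scaled to a common library size). Replicates differed by more than counting noise in every pair of either group, with Mut.oligo library 4 farthest from libraries 2 and 3 (chi-square per degree of freedom of 18.6 and 19.4, against 6.6 to 13.5 for the other Mut.oligo pairs). Neuronal markers summed to 5177–5844 CPM in untreated and 5218–6013 CPM in Mut.oligo libraries, and Rbfox3, which encodes the neuronal nuclear antigen NeuN, averaged 102 ± 4.08 and 106 ± 7.25 CPM (SD, n = 4). Astrocyte and radial glia markers were present in every library (1395–2115 and 1153–2219 CPM).

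Without a covariate, no gene of 18755 tested passed the threshold (adjusted p under 0.05 and an absolute log2 fold change above 0.5, edgeR quasi-likelihood test, 0% called in either direction), and the smallest adjusted p was 0.244. At an unadjusted p under 0.05, 998 genes were higher (5.32%) and 782 were lower (4.17%), 9.49% of all genes together. DESeq2 on the same libraries, also without a covariate, called 10 genes, 5 in each direction. The study, which used DESeq2 with default parameters, reports no gene as deregulated by Mut.oligo at 6 h. Once the experiment batch entered the fit, 4 genes fell (0.0213% called) and none rose (0% called). At an unadjusted p under 0.05, that fit had 817 genes higher (4.36%) and 772 lower (4.12%), 8.47% together. DESeq2 with the batch called 8 genes, all lower, and these included the 4. The median log2 fold change over all genes was 0.00 in either fit.

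The 4 genes that fell in the batch fit encode a pair of activity-induced transcription factors, a matrix proteoglycan and a receptor-associated membrane protein. Nr4a1 (ENSMUSG00000023034, chr15:101254269-101274795, plus strand, GRCm38), an orphan nuclear receptor induced within minutes of stimulation, had 29.9, 20.9, 13.2 and 16 CPM in untreated libraries 1 to 4 and 10.5, 20.7, 18.3 and 8.70 CPM in Mut.oligo libraries 1 to 4. The groups overlapped, but in each shared batch the Mut.oligo library was lower, 18.3 against 29.9 CPM in D and 10.5 against 16 CPM in E. Its log2 fold change was -0.45 (SE 0.335, adjusted p = 0.714) without and -0.72 (SE 0.0744, adjusted p = 0.00123) with the batch. This call was kept on leaving out any 1 of the 8 libraries from the batch fit (adjusted p 3.64e-04 to 0.0452). The run without Mut.oligo library 4 could not test the call, since that library has no weight in this fit.

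Npas4 (chr19:4984355-4990316, minus strand), a neuron-restricted transcription factor that follows calcium entry, had 16.2, 11.1, 4.78 and 6.09 CPM in untreated and 3.83, 6.81, 8.60 and 3.02 CPM in Mut.oligo libraries. The pattern was that of Nr4a1, with overlapping groups and lower values within batches D and E (log2 differences of -0.91 and -0.66). The log2 fold change was -0.76 (SE 0.468, adjusted p = 0.648) without and -1.04 (SE 0.152, adjusted p = 0.0267) with the batch. On leaving out 1 library at a time the batch fit kept this call in 4 of 8 cases. Of these 4, 1 left out Mut.oligo library 4, which has no weight in this fit and so could not test the call.

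Acan (chr7:79053483-79115099, plus strand) encodes aggrecan, the core proteoglycan of perineuronal nets. It had 6.97, 7.73, 2.65 and 9.09 CPM in untreated and 3.22, 2.79, 4.26 and 2.26 CPM in Mut.oligo libraries. Untreated library 3, which shares no batch with a Mut.oligo library, was the one that lay among the Mut.oligo values. The log2 fold change was -1.08 (SE 0.422, adjusted p = 0.458) without and -1.14 (SE 0.173, adjusted p = 0.0267) with the batch.

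Cacng5 (chr11:107874605-107915055, minus strand), a transmembrane AMPA receptor auxiliary subunit of the stargazin family, was the one called gene whose groups did not overlap. Its untreated libraries had 15.2, 18.7, 11.8 and 14.4 CPM and its Mut.oligo libraries 9.83, 10.5, 9.76 and 9.68 CPM. Over all genes, 1.99% were lower in every Mut.oligo than in every untreated library. The log2 fold change was -0.59 (SE 0.164, adjusted p = 0.321) without and -0.57 (SE 0.0870, adjusted p = 0.0267) with the batch. Acan and Cacng5 each kept the call in 3 of 8 batch fits that left out 1 library. For each gene, 1 of these 3 left out Mut.oligo library 4, which has no weight there and so could not test the call.

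**Figure D1:**
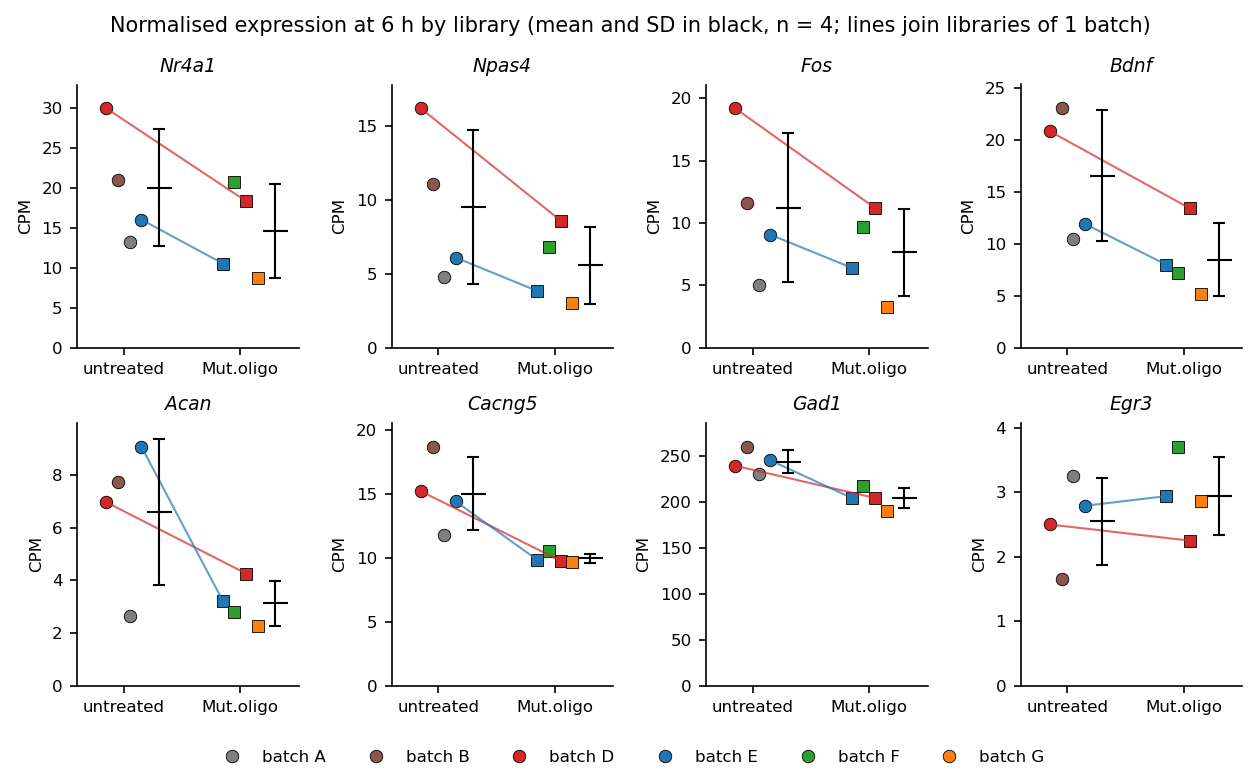
Expression of called and activity-regulated genes in each library of 6 h, in CPM on linear axes, with the mean and SD of 4 libraries in black and lines joining the libraries of 1 experiment batch. Nr4a1, Npas4 and Fos overlapped between groups, while both lines slope down from untreated to Mut.oligo, and Egr3 is shown as a member with no such difference.

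In the batch fit a further 8 genes had an adjusted p under 0.05 with smaller fold changes, so that 12 genes (0.0640% of all) passed with no minimum fold change. Gad1, the GABA-synthesising glutamate decarboxylase, had 239, 260, 230 and 245 CPM in untreated and 204, 217, 204 and 190 CPM in Mut.oligo libraries. Every Mut.oligo library was thus lower than every untreated one, and the log2 fold change was -0.26 (SE 0.0524, adjusted p = 0.292) without and -0.23 (SE 0.0346, adjusted p = 0.0267) with the batch. Pak6, a p21-activated kinase, and Msi2, an RNA-binding translational regulator, were also lower in all 4 Mut.oligo libraries, with batch-fit log2 fold changes of -0.30 and -0.24 (adjusted p = 0.0288 and 0.0346). Gpr153, an orphan receptor, showed -0.46 (adjusted p = 0.0407). Rgs2, an inhibitor of Gq signalling, Nr4a3, a paralogue of Nr4a1, and Sema7a, a membrane-anchored semaphorin, showed -0.32, -0.36 and -0.24 with overlapping groups (adjusted p = 0.0267, 0.0288 and 0.0288). The sialyltransferase gene St3gal1 was the one of the 12 that was higher, with 78.2, 70.0, 85.7 and 75.9 CPM in untreated and 89.9, 96.1, 99.0 and 93.3 CPM in Mut.oligo libraries (batch-fit log2 fold change 0.29, SE 0.0472, adjusted p = 0.0339).

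The lists of activity-regulated genes were examined next. Of 18 immediate early transcription factors, 14 had a log2 fold change below 0 in either fit (50.1% of all genes without and 50.6% with the batch). None reached an unadjusted p under 0.05 without the batch, and 7 did with it, all lower, where 4.12% of all genes were lower by that rule. The median log2 fold change was -0.22 without and -0.19 with the batch, against 0.00 over all genes. Without Mut.oligo library 4 the first median was -0.12, and without Mut.oligo library 3 the batch-fit median was -0.05. The 7 were Npas4, Nr4a1, Nr4a2, Nr4a3, Fos, Fosb and Egr4. Fos, the AP-1 subunit used most widely as a mark of recent activity, had 19.2, 11.6, 5.02 and 9.06 CPM in untreated and 6.40, 9.66, 11.2 and 3.27 CPM in Mut.oligo libraries. Its groups overlapped and its within-batch log2 differences were -0.77 in D and -0.49 in E, with a batch-fit log2 fold change of -0.77 (SE 0.142, adjusted p = 0.0746). Fosb and Egr4, both below 4 CPM, gave -0.67 (SE 0.221) and -0.89 (SE 0.290), and Nr4a2 gave -0.34 (SE 0.152). Other members of the same families had values near or above 0. Egr2 and Egr3 had batch-fit log2 fold changes of 0.33 (SE 0.301) and 0.04 (SE 0.167).

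Most effectors of activity were also below 0. Of 33 genes, 28 were below 0 without (84.8%) and 27 with the batch (81.8%), against 50.1% and 50.6% of all genes. At an unadjusted p under 0.05, 12 were lower and none higher without the batch, and 19 lower and 1 higher with it (4.17% lower and 5.32% higher, then 4.12% and 4.36%, of all genes). The 1 higher was Nptx1, a neuronal pentraxin (batch-fit log2 fold change 0.20, SE 0.0620). Its relative Nptx2, which clusters AMPA receptors at inhibitory neurons, gave -0.32 (SE 0.125). Bdnf, the neurotrophin, had 20.8, 23.0, 10.4 and 11.9 CPM in untreated and 7.97, 7.17, 13.4 and 5.17 CPM in Mut.oligo libraries. Only Mut.oligo library 3 reached into the untreated range, and the log2 fold change was -0.97 (SE 0.377, adjusted p = 0.457) without and -0.90 (SE 0.249, adjusted p = 0.273) with the batch. 

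The neuropeptide and granule genes of the effector list were not all lower. Npy and Tac1, which encode neuropeptide Y and substance P, had batch-fit log2 fold changes of 0.02 (SE 0.0604) and 0.16 (SE 0.182). The granin gene Scg2, with 139, 182, 128 and 149 CPM in untreated and 98.7, 82.8, 126 and 74.1 CPM in Mut.oligo libraries, did not overlap between groups (log2 fold change -0.65 without and -0.50 with the batch, adjusted p = 0.295 and 0.311). Vgf, another secretory granule protein, gave -0.51 and -0.53, and Adcyap1, which encodes the peptide PACAP, gave -0.58 and -0.66. For Sst, the somatostatin gene, the values were -0.34 and -0.29, and for Pcsk1, the prohormone convertase, -0.66 and -0.63. Crh, corticotropin-releasing hormone, was low and also did not overlap (1.28 ± 0.434 and 0.456 ± 0.360 CPM, SD, n = 4), with values of -1.47 and -1.37. None of these 8 genes passed the threshold in either fit. Among phosphatases and Sprouty proteins that limit MAP kinase signalling, the batch-fit log2 fold change was -0.22 (SE 0.0436) for Dusp4, -0.24 (SE 0.0745) for Dusp6 and -0.26 (SE 0.0598) for Spry2, and also -0.10 for Dusp1, -0.22 for Dusp5 and -0.25 for Spry4, and none of the 6 passed. The class IIa histone deacetylase gene Hdac9 gave -0.54 (SE 0.120, adjusted p = 0.150) and its relative Hdac5 -0.20 (SE 0.0450, adjusted p = 0.156). Rgs4, a regulator of G proteins, gave -0.42 (SE 0.0969, adjusted p = 0.158), and the circadian repressor genes Per1 and Nfil3 gave -0.34 and -0.25. Other effectors lay close to 0. Arc, a postsynaptic cytoskeletal protein, had log2 fold changes of 0.05 (SE 0.190) and 0.01 (SE 0.170), and the scaffold gene Homer1 -0.07 (SE 0.101) and -0.13 (SE 0.0620). Single libraries moved the values of several effectors. Leaving out Mut.oligo library 3 from the batch fit gave -3.11 for Crh, -1.38 for Bdnf, -1.13 for Adcyap1 and -0.84 for Scg2, and leaving out Mut.oligo library 2 gave -0.82, -0.54, -0.46 and -0.32. Without Mut.oligo library 3 that fit called 66 genes, among them Crh, Bdnf, Adcyap1, Scg2, Vgf, Pcsk1, Rgs4, Hdac9 and Fos.

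Taking both lists as 51 genes, 12 (23.5%) were lower at an unadjusted p under 0.05 without the batch and 26 (51.0%) with it, against 4.17% and 4.12% of all genes. Of the 51, 43 were lower in batch D and 38 in batch E, and 35 in both, where 27.2% of all genes were lower in both. The standard error of a member fell to a median of 0.625 times its value when the batch entered the fit, while over all genes the ratio was 0.970. The median member lay 0.17, 0.12, -0.21 and -0.09 from the untreated mean (log2) in untreated libraries 1 to 4 and -0.30, -0.06, -0.05 and -0.45 in Mut.oligo libraries 1 to 4. Untreated library 3 was thus lower than Mut.oligo libraries 2 and 3, and Mut.oligo library 4 was lowest. Without Mut.oligo library 4, the count of lower members in the fit without batch went from 12 to 5, and without untreated library 1 or 2 it went to 7 or 6. Both lists were drawn up with earlier results of these data known, so their counts are a description.

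**Figure D2:**
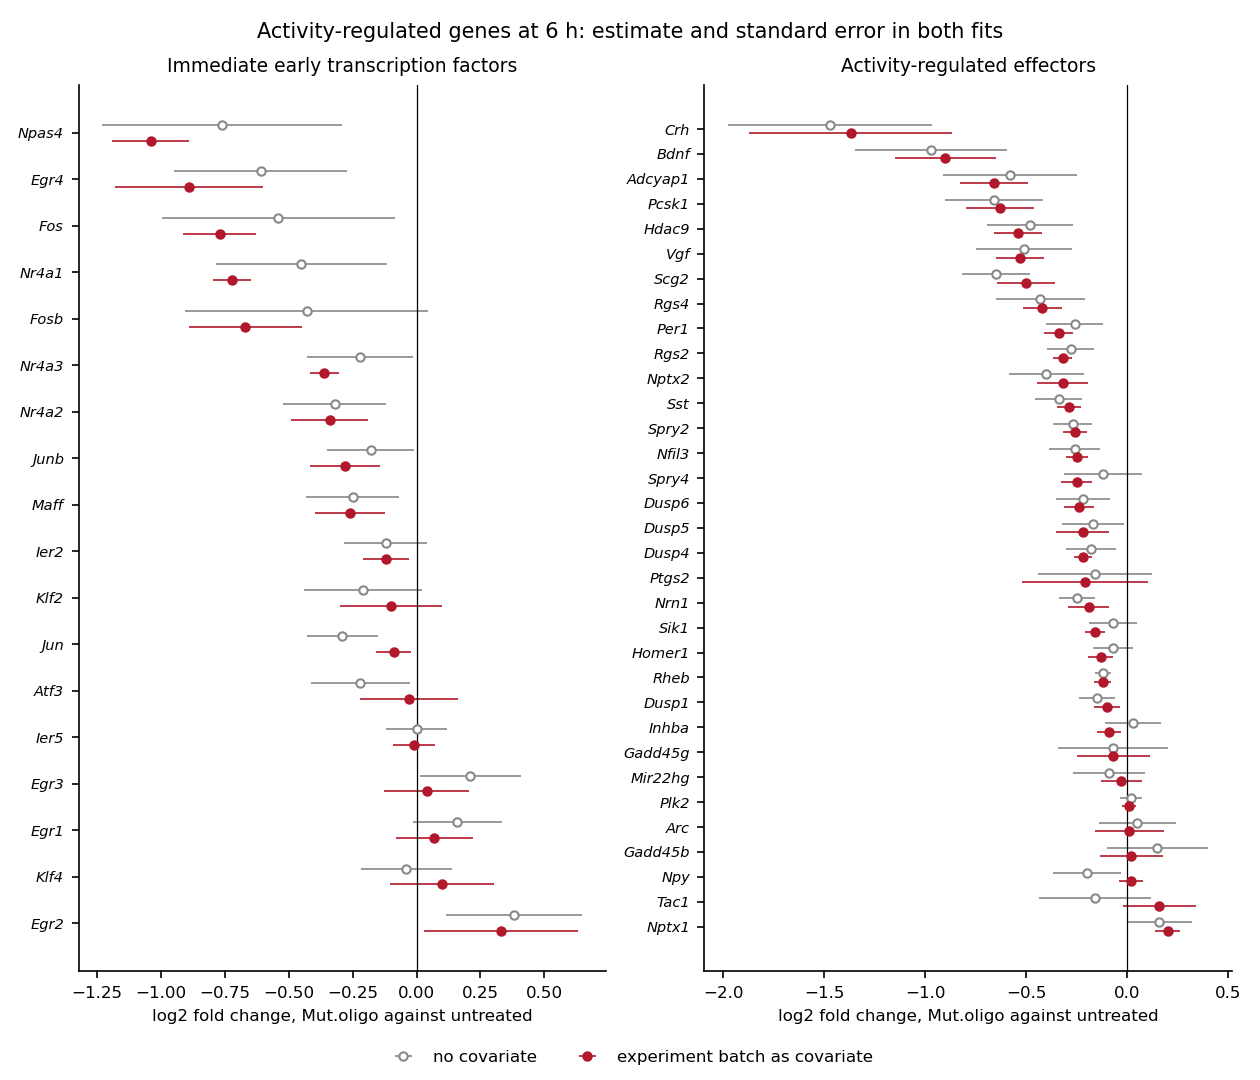
Log2 fold change of Mut.oligo against untreated at 6 h for members of the immediate early and effector lists in the fits without and with the experiment batch, with bars for 1 standard error. Most members lie below 0 in both fits, and the bars of Nr4a1, Npas4 and Fos are shorter with the batch.

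Inhibitory and excitatory synapse genes were considered next. Of 19 genes for GABA synthesis, transport and receptors, 7 were lower and none higher at an unadjusted p under 0.05 without the batch, and 4 lower and 1 higher with it (medians of -0.13 and -0.07), where 4.17% and 4.12% of all genes were lower and 5.32% and 4.36% higher. Without Mut.oligo library 4 the 7 became 3. Besides Gad1, the receptor subunit gene Gabra5 had 126, 140, 110 and 135 CPM in untreated and 105, 108, 118 and 95.7 CPM in Mut.oligo libraries (batch-fit log2 fold change -0.24, SE 0.0513, adjusted p = 0.145). Among 14 genes of perineuronal nets and the hyaluronan matrix, 6 were below 0 without and 5 with the batch (50.1% and 50.6% of all genes). At an unadjusted p under 0.05, 2 were higher and 1 lower without it, and 2 and 2 with it. Acan fell in the batch fit, and the link protein gene Hapln1 gave -0.54 and -0.41 (adjusted p = 0.772 and 0.539). The lectican Vcan gave 0.31 and 0.21, and Tnr, the net cross-linker tenascin-R, with no overlap between groups, gave 0.26 and 0.16 without and with the batch (adjusted p 0.386 to 0.453 over these 4 values).

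Glutamate receptor and channel genes lay on both sides of 0, and their counts stand against the same shares of all genes (5.32% higher and 4.17% lower without, 4.36% and 4.12% with the batch). Among 19 NMDA, kainate and metabotropic receptor genes 1 was higher and 3 lower without the batch, and 3 higher and 2 lower with it, and the median was 0.02 in either fit. Grm2, a presynaptic metabotropic receptor that inhibits release, had 44.2, 57.7, 39.9 and 44.7 CPM in untreated and 29.1, 29.0, 38.3 and 22.6 CPM in Mut.oligo libraries. Its groups did not overlap, and its log2 fold change was -0.65 (SE 0.161, adjusted p = 0.292) without and -0.52 (SE 0.101, adjusted p = 0.102) with the batch. DESeq2 called it with and without the batch. Grin2b, the NMDA receptor subunit of young neurons, lay in the other direction at 607 ± 107 and 829 ± 91.9 CPM (log2 fold change 0.45 and 0.29, adjusted p = 0.374 and 0.373). Of 16 AMPA receptor and auxiliary genes, Cacng5 included, 1 was higher and 1 lower without the batch, and 3 higher and 1 lower with it. Among 32 voltage-gated channel genes, 5 were higher and 5 lower without the batch, and 7 and 6 with it, and Cacna1d, an L-type calcium channel, gave 0.29 in either fit (adjusted p = 0.313 and 0.175).

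Metabolic and structural lists gave smaller medians. Of 30 nuclear-encoded oxidative phosphorylation genes, 28 were below 0 without the batch at a median of -0.06, and 3 were lower at an unadjusted p under 0.05. With the batch 26 were below 0 at a median of -0.05, and 2 were lower. Over all genes, 50.1% and 50.6% were below 0, and 4.17% and 4.12% were lower. The tilt was not particular to this list, as 31 of 32 ribosomal protein genes and 24 of 26 cholesterol genes were below 0 without the batch. The glycolytic genes Aldoa and Ldha were lower in every Mut.oligo than in every untreated library, at 285 ± 25.1 against 243 ± 7.82 CPM and 297 ± 9.44 against 273 ± 11.8 CPM. Neither passed the threshold (log2 fold changes of -0.23 and -0.12, adjusted p = 0.292 and 0.386). Of 35 axon and dendrite growth genes, 5 were higher and none lower without the batch, and 7 higher and 1 lower with it, where 5.32% and 4.36% of all genes were higher. Igf1, a growth factor, gave -0.44 and -0.40 and its receptor gene Igf1r gave 0.25 and 0.20 (adjusted p 0.158 to 0.418 over these 4 values). Cell cycle genes (30) had no member at an unadjusted p under 0.05 without the batch and 1 lower with it, and of 22 apoptosis and p53 target genes none did without and 2 were higher and 1 lower with it.

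**Figure D3:**
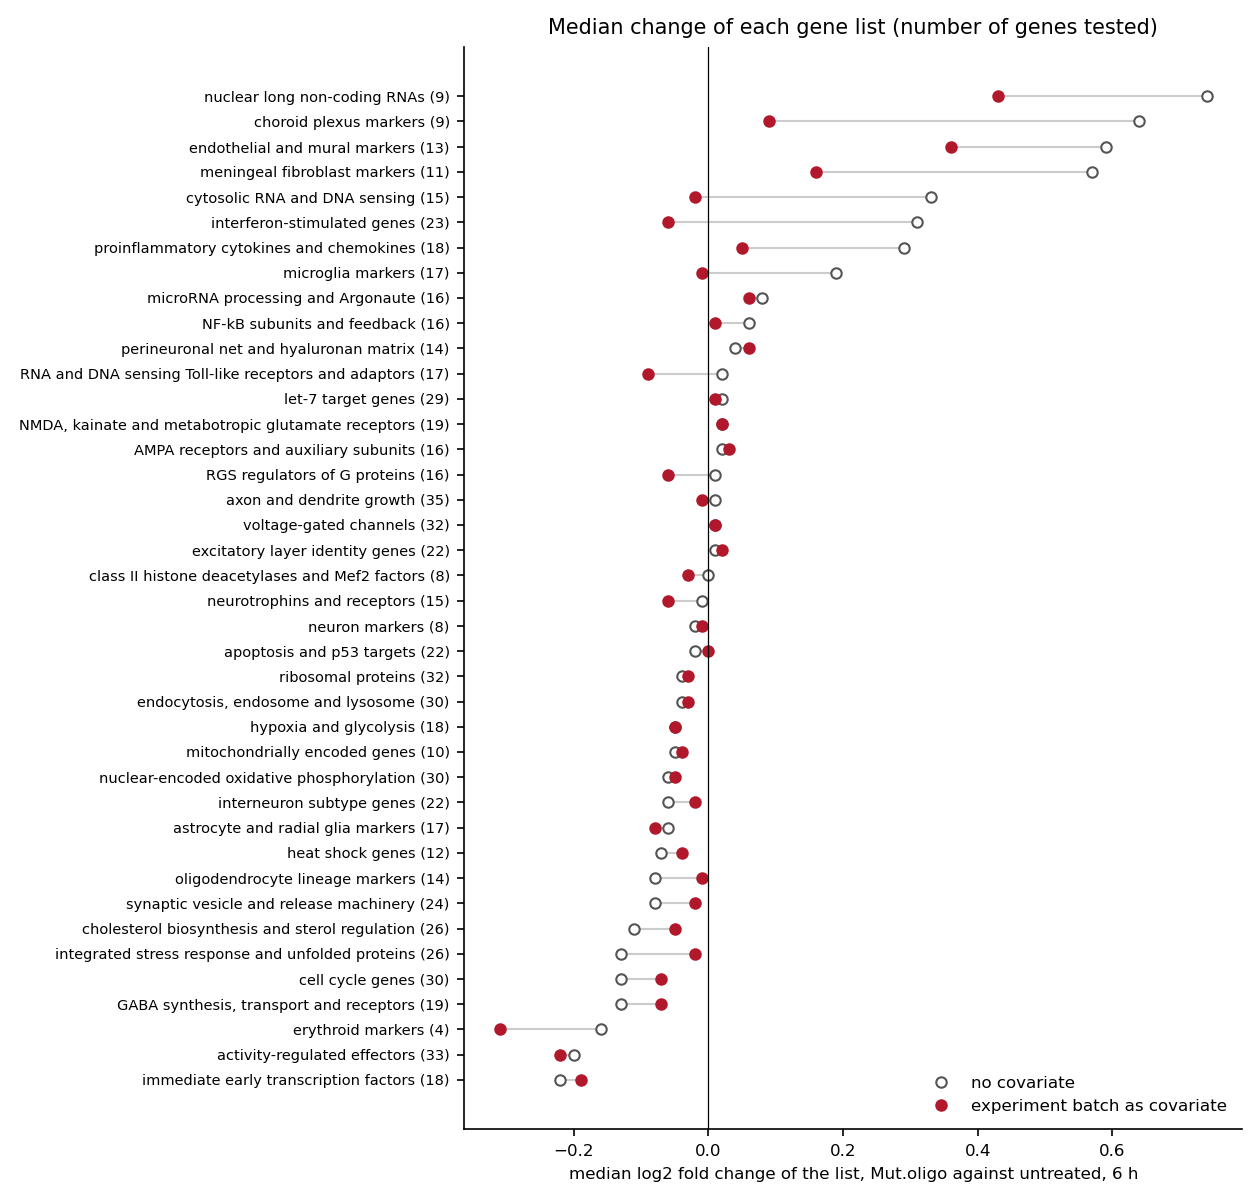
Median log2 fold change of each gene list for Mut.oligo against untreated at 6 h, without and with the experiment batch as covariate, with the median over all genes at 0.00. The immediate early list is at -0.22 and -0.19 and the effector list at -0.20 and -0.22, while the interferon-stimulated list goes from 0.31 to -0.06.

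Genes with the smallest p in each direction among those whose groups did not overlap were mostly small in size. The lowest p in the fit without a covariate belonged to Hip1r, a clathrin and actin adaptor, with 89.8, 91.4, 95.6 and 91.4 CPM in untreated and 79.2, 79.8, 82.1 and 76.8 CPM in Mut.oligo libraries (log2 fold change -0.21, SE 0.0349, adjusted p = 0.244). Rcan2, a calcineurin inhibitor, gave -0.37, the phosphatase gene Ppm1h gave -0.26, Maoa, monoamine oxidase A, gave -0.27 and Baiap2l2 gave -0.62, all with an adjusted p of 0.292. Lrrc73 gave -0.35 with the batch (adjusted p = 0.0605). Hip1r and Ppm1h overlap another annotated gene (Gm37939 and Mir8104), as does Hdac5 (Mir8101).

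In the other direction, Cntn2, an axonal adhesion molecule, had 310, 264, 304 and 265 CPM in untreated and 347, 383, 336 and 367 CPM in Mut.oligo libraries (log2 fold change 0.33, SE 0.0644, adjusted p = 0.292). The transcription factor genes Hivep2 and Zfp462 gave 0.25 and 0.33, the mitochondrial transporter gene Sfxn2 0.49 and the kinase gene Stk38 0.22, all with the same adjusted p. With the batch, Sorl1, an endosomal sorting receptor, gave 0.30 (adjusted p = 0.0774), Sez6l 0.20 (0.0885), Spag1 0.59 (0.116) and Cyld, a deubiquitinase of NF-kB signalling, 0.23 (0.122). None of these 9 passed the threshold in either fit, and 2.24% of all genes were higher in every Mut.oligo than in every untreated library.

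A list of 9 long non-coding RNAs that stay in the nucleus was drawn up after the values were seen, so its median and counts are a description. Its median log2 fold change was 0.74 without and 0.43 with the batch, 6 members were higher at an unadjusted p under 0.05 in either fit (5.32% and 4.36% of all genes), and 8 of 9 were higher in both shared batches, where 27.5% of all genes were. Malat1, a nuclear speckle RNA, had 170, 66.3, 108 and 144 CPM in untreated and 302, 121, 266 and 403 CPM in Mut.oligo libraries. Only Mut.oligo library 2 lay in the untreated range, and the log2 fold change was 1.16 (SE 0.342, adjusted p = 0.374) without and 0.67 (SE 0.229, adjusted p = 0.409) with the batch. Meg3, an imprinted RNA, had 289, 179, 262 and 248 CPM and 389, 276, 463 and 539 CPM. Library 2 was again lowest among the Mut.oligo libraries, and the log2 fold changes were 0.77 (SE 0.209) and 0.43 (SE 0.151). Miat gave 0.74 and 0.32, Kcnq1ot1, an antisense RNA of the Kcnq1 locus, 1.08 and 0.61, and Neat1, the paraspeckle RNA, 0.96 and 0.48. None passed the threshold in these fits. On leaving out Mut.oligo library 3 the batch-fit median of the list was 0.11, with 0.23 for Meg3 and 0.09 for Miat, and on leaving out Mut.oligo library 1 Malat1 gave 0.39. With only the 7 libraries of batches D and E, Malat1, Meg3, Miat and Kcnq1ot1 were called, at 2 residual degrees of freedom, where 16 genes passed in all.

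The fold change also differed with annotated exon length. Genes of at least 1 CPM were put in 4 bins by exon length, with 3367 or 3368 genes in each. The median log2 fold change went from -0.045 in the shortest bin (57 to 2906 bases) through -0.030 and -0.009 to 0.032 in the longest (7066 to 123179 bases), and from -0.025 to 0.017 with the batch. The share higher at an unadjusted p under 0.05 was 1.48% in the shortest and 11.5% in the longest bin, and the share lower 7.30% and 2.64%. Lrp1, a large endocytic receptor with 351 ± 51.2 and 506 ± 72.0 CPM, gave log2 fold changes of 0.53 and 0.35 (adjusted p = 0.340 and 0.382). The part of exon length in the values of single genes was not tested.

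**Figure D4:**
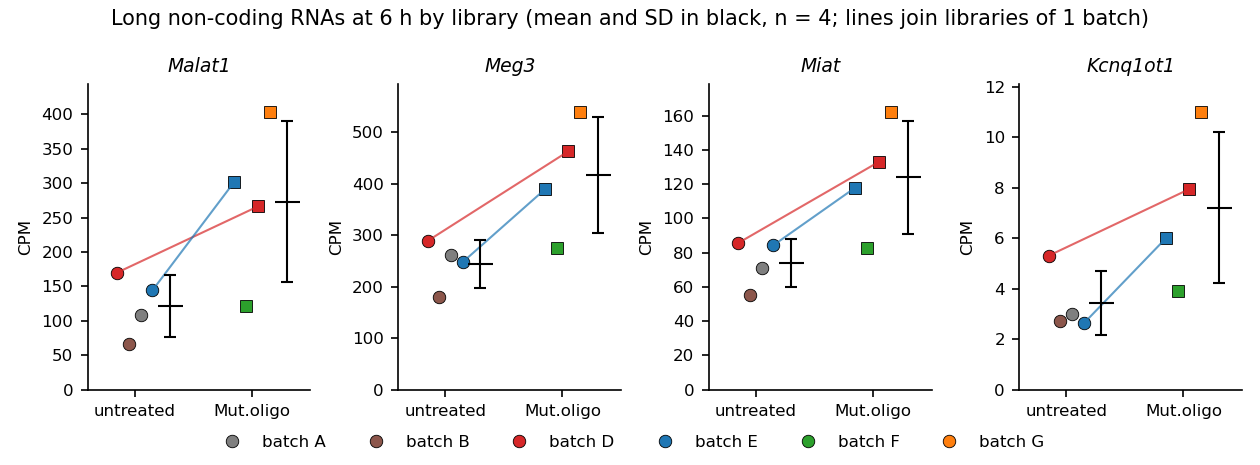
Malat1, Meg3, Miat and Kcnq1ot1 in each library of 6 h, in CPM on linear axes, with the mean and SD of 4 libraries in black and lines joining libraries of 1 experiment batch. Mut.oligo library 4 (batch G) is highest for each of the 4 RNAs and Mut.oligo library 2 (batch F) is lowest of its group.

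Because Mut.oligo served as a control for Toll-like receptor signalling, the sensing genes were read in every library. Tlr7, the endosomal receptor for single-stranded RNA, had 0.710, 0.507, 0.731 and 1.05 CPM in untreated and 0.523, 0.582, 0.580 and 0.546 CPM in Mut.oligo libraries (log2 fold change -0.43, SE 0.287, without and -0.59, SE 0.293, with the batch, adjusted p = 0.676 and 0.620). Tlr8 lay at 0.0263 to 0.135 and 0.121 to 0.255 CPM, which is 7 counts or fewer in each Mut.oligo library. The adaptor gene Myd88 was at 3.25 ± 0.390 and 3.25 ± 0.392 CPM, and the kinase gene Irak4 at 0.714 ± 0.197 and 0.650 ± 0.337 CPM (SD, n = 4). Of 17 receptor and adaptor genes, 1 was higher and none lower at an unadjusted p under 0.05 without the batch, and none higher and 2 lower with it, where 4.12% of all genes were lower.

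Cytokine genes downstream of these receptors were low and gave no call. Tnf had 2.37, 1.43, 1.98 and 3.50 CPM in untreated and 3.70, 2.76, 1.33 and 2.18 CPM in Mut.oligo libraries, with Mut.oligo higher in batch E and lower in batch D (log2 fold change 0.09, SE 0.332, and 0.04, SE 0.250, with the batch). The chemokine genes Ccl3 and Ccl9 gave 0.20 and 0.16 without and 0.24 and 0.06 with the batch, and Il1a and Cxcl2, both under 1 CPM, gave 0.37 and 0.05 and then 0.09 and 0.33. Il6 was at 0 to 0.211 CPM in untreated and 0.0805 to 0.307 CPM in Mut.oligo libraries, close to the level of 3 counts. Ccl2, a monocyte attractant, was the highest in fold at 0.430 ± 0.245 and 1.24 ± 0.569 CPM (log2 fold change 1.49, SE 0.578, without and 0.73, SE 0.309, with the batch, adjusted p = 0.455 and 0.528). Of 18 cytokine and chemokine genes, 2 were higher and 1 lower without the batch, and 3 and 1 with it (5.32% and 4.17%, then 4.36% and 4.12%, of all genes). For interferon-stimulated genes the fits differed in sign, with a median of 0.31 without and -0.06 with the batch over 23 genes. Without Mut.oligo library 4 the first median was -0.03. Ifit1, an interferon-induced RNA-binding protein, was at 1.05 ± 0.674 and 1.46 ± 1.11 CPM (log2 fold change 0.44, SE 0.653, and -0.15, SE 0.274), and Rtp4 gave -0.25 and -0.45. In both shared batches, 16 of the 23 were lower, as were 27.2% of all genes.

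Targets of the parent microRNA, whose seed Mut.oligo keeps in the study's methods, were compared as well. Of the tested genes with an annotated 3′ untranslated region, 1794 (11.8%) held a match to the let-7 seed (CTACCTC). Their median log2 fold change was 0.005 without and 0.006 with the batch, against -0.011 and -0.007 for the 13460 without a match. The 235 genes with 2 or more matches gave 0.020 and 0.010. The untranslated regions of genes with a match were longer, with a median of 2452 against 1214 bases. Of 29 tested let-7 target genes, 1 was higher and none lower at an unadjusted p under 0.05 without the batch, and 2 higher and 1 lower with it, near the shares of all genes. Lin28b, an RNA-binding blocker of let-7 maturation, gave 0.33 (SE 0.254) and 0.35 (SE 0.170), Hmga2, a chromatin protein, 0.53 (SE 0.297) and 0.71 (SE 0.334), and Igf2bp1, an mRNA-binding protein, 0.24 (SE 0.232) and 0.20 (SE 0.156). Of 16 microRNA processing and Argonaute genes, 3 were higher without and none with the batch (5.32% and 4.36% of all genes), and 11 were higher and 0 lower in both shared batches (27.5% and 27.2% of all genes). Tnrc6b, a silencing scaffold, gave 0.26 and 0.15, Ago3 0.29 and 0.16, and Dicer1, the processing nuclease, 0.14 and 0.07 (adjusted p 0.434 to 0.698 over these 6 values).

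Markers of other cell types differed widely between libraries of 1 group, and in bulk RNA fewer cells of a type and less RNA per cell cannot be told apart. Mut.oligo library 4 had the highest sums for the astrocyte, microglia, endothelial and mural, fibroblast and choroid plexus lists among the 8 libraries. Of the defining microglial genes, P2ry12 had 0 to 8 counts and Cx3cr1 16 to 40 counts per library, and all 17 tested microglial markers had a log2 fold change above 0 without and 8 with the batch (medians of 0.19 and -0.01, sums of 30.8–53 and 37.4–58.6 CPM). Endothelial and mural markers summed to 17.1–29.6 CPM in untreated and 30.8–52.0 CPM in Mut.oligo libraries, without overlap, while the defining endothelial gene Cldn5 had 0 to 2 counts. Of 13 tested members, 4 were higher without and 1 with the batch (5.32% and 4.36% of all genes). Angpt2, an angiogenic ligand, was at 0.391 ± 0.135 and 0.823 ± 0.245 CPM. Meningeal fibroblast markers ranged from 43.0 to 244 CPM and from 148 to 446 CPM, with 2 of 11 higher with the batch. Col1a1, a fibrillar collagen gene, had 20.1, 28.6, 8.55 and 47.1 CPM in untreated and 53.6, 26.6, 22.8 and 78.4 CPM in Mut.oligo libraries, and Gfap, the astrocytic filament gene, 8.05, 18.1, 7.49 and 35.9 CPM and 38.1, 10.7, 6.55 and 69.5 CPM. The log2 fold changes went from 0.79 to 0.19 for Col1a1 and from 0.83 to 0.02 for Gfap when the batch was entered. The choroid plexus list, drawn up after the values were seen, ranged from 23.6 to 160 CPM and from 77.1 to 246 CPM. The part of these cells in the results above was not tested.

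**Figure D5:**
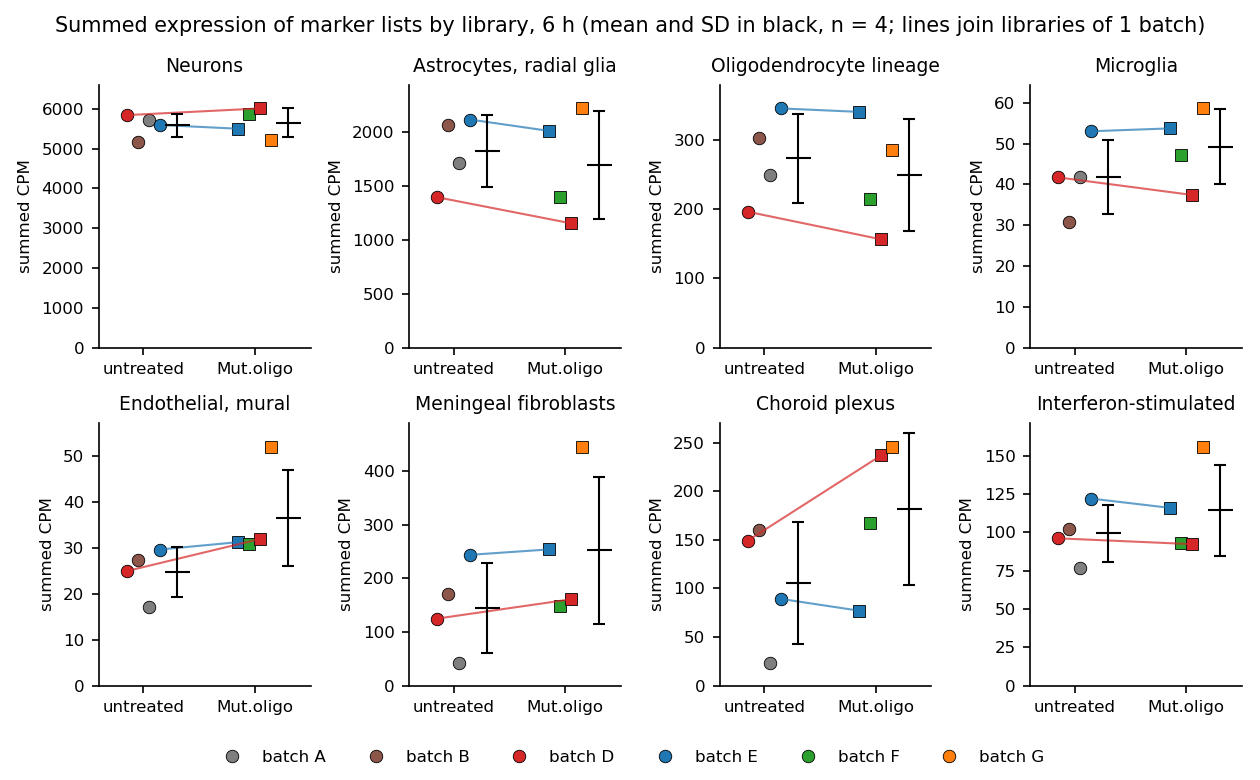
Summed expression of cell type marker lists and of interferon-stimulated genes in each library of 6 h, in CPM on linear axes, with the mean and SD of 4 libraries in black and lines joining libraries of 1 experiment batch. Neuronal sums lie between 5177 and 6013 CPM, and the endothelial and mural sums of the groups do not overlap (17.1–29.6 and 30.8–52.0 CPM).

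Mut.oligo was then tested directly against the other oligoribonucleotides at 6 h. By the labels, Mut.oligo libraries shared only batches D and E with miR-92a-1-5p and only E and F with miR-124-5p. No gene differed from miR-92a-1-5p in either fit (0% called, with 398 genes or 2.12% at an unadjusted p under 0.05 without and 526 or 2.80% with the batch), nor from miR-124-5p (0% called, 671 or 3.58% and 822 or 4.38%). For Nr4a1 the batch-fit difference was -0.27 from miR-92a-1-5p (95% interval -0.43 to -0.11) and -0.40 from miR-124-5p (-0.56 to -0.24). For Cacng5 it was -0.03 (-0.21 to 0.16) and -0.20 (-0.39 to -0.01). These intervals are not adjusted for the number of genes, and over all genes the adjusted p was 1.000 for either gene against miR-92a-1-5p and 0.996 against miR-124-5p. Against the untreated libraries, which the comparisons share, the batch-fit log2 fold change of Nr4a1 was -0.72 for Mut.oligo, -0.32 for miR-124-5p and -0.45 for miR-92a-1-5p, and that of Npas4 was -1.04, -0.29 and -0.84. For Acan the values were -1.14, -0.42 and -0.95, and for Cacng5 -0.57, -0.37 and -0.55. Npas4, Acan and Cacng5 thus passed the threshold for miR-92a-1-5p too (adjusted p = 0.00494, 0.00494 and 0.00341, edgeR quasi-likelihood test). Nr4a1 had an adjusted p of 0.00374 there with a smaller fold change. For miR-124-5p the adjusted p was 0.798 to 0.859 over the 4 genes. The study instead reports Cacng5 as lowered by both microRNAs at 6 h and no gene as deregulated by Mut.oligo. Whether exchanged library names have a part in this difference was not tested.

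The 4 called genes were then read after 5 d. They were chosen by their 6 h values in these same libraries, so the differences between times below may be overstated. Fitted over all 32 libraries with the batch, the log2 fold change at 5 d was -0.09 (SE 0.0729) for Nr4a1, -0.11 (SE 0.109) for Npas4, -0.06 (SE 0.159) for Acan and -0.03 (SE 0.0623) for Cacng5. The 6 h value less the 5 d value was -0.64, -0.94, -1.09 and -0.56, and the adjusted p of that difference was 0.0645, 0.0968, 0.509 and 0.0645, so none passed. Over 20425 genes tested, no gene differed between the times without the batch (0% called, 5.55% at an unadjusted p under 0.05) and 2 did with it (0.00979% called, 4.46% at an unadjusted p under 0.05). The times share no batch, so time and batch cannot be told apart in levels, only in the differences within a time.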

How the data were processed

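RNA was measured in 32 libraries of cultured mouse cortical neurons (TruSeq Stranded mRNA, 75 bp single-end reads). The authors aligned reads to GRCm38 with STAR and deposited raw counts for 49671 genes from featureCounts of Subread, with no normalization. Groups, replicates and experiment batches came from the labels, and 0 columns were left unused.

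A gene entered the tests with 5 or more counts in 3 or more libraries among the 16 of 6 h (18755 genes). Counts were scaled by TMM and fitted with the quasi-likelihood test of edgeR 4.0.16 (limma 3.58.1, R 4.3.3) over the 4 groups of 6 h, without covariate (12 residual degrees of freedom) and with the experiment batch (6). In the batch fit Mut.oligo library 4, alone in its batch, has no weight. Calls needed an adjusted p (Benjamini-Hochberg) under 0.05 together with an absolute log2 fold change above 0.5. The standard error is the log2 fold change over the root of F, and within-batch differences are on log2(CPM + 0.1). DESeq2 1.42.0 was an alternative, beside other scalings, filters and subsets of libraries. The fits were also run on simulated counts for Mut.oligo against untreated at 6 h, with 200 genes changed. With no batch effect (18430 genes), edgeR without covariate recovered 68% with 3 false calls, and the batch fit 59.5% with 2. With a simulated batch effect (18459 genes), the batch fit recovered 66% with 1 false call, and edgeR without covariate 59% with 0. The simulated batch effects had the same spread for every gene.

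Named genes were those called in either fit, the 6 with the smallest p in each direction in each fit (mean of at least 1 CPM, groups not overlapping, same sign in both shared batches), up to 3 members of each list with the smallest p, and genes the study names at 6 h. The other named genes were chosen after their values were seen. The comparison and the 38 lists were chosen with earlier results of these data known, and 2 further lists (nuclear long non-coding RNAs, choroid plexus) after the values were seen. Sequences are from RefSeq, GRCm38.p6.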

Additional observations from a re-analysis of the deposited data

Results flagged for a closer look

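For 93 named genes, each group of 4 libraries was searched for 1 library far from the other 3, and chance flags about 1 in 20 such groups. In 9 of 186 groups 1 library stood apart, which is near that share. Untreated library 3 had 240 CPM of Pak6, and the others 258 each. Mut.oligo library 4 had 101 CPM of Msi2 (others 93.1 to 93.7), 31.8 CPM of Lrrc73 (36.2 to 36.9) and 68.5 CPM of Stk38 (60.6 to 61.9). Crh was at 1.93 CPM in untreated library 2 (others 1.04 to 1.12) and at 0.989 CPM in Mut.oligo library 3 (0.201 to 0.327). Untreated library 1 had 5.31 CPM of Kcnq1ot1 (2.63 to 3.01). Mut.oligo library 2 had 0.307 CPM of Il6 (0.0805 to 0.109), and Mut.oligo library 1 had 255 CPM of Aldoa (239 to 241).

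A pair of genes differed between times in the fit with the experiment batch. Pdgfra, the receptor of oligodendrocyte progenitors, had a log2 fold change of -0.05 at 6 h and -1.46 at 5 d, a difference of 1.41 (adjusted p = 0.00688, edgeR quasi-likelihood test). Kdr, a vascular endothelial growth factor receptor, had -0.11 and -1.37, a difference of 1.26 (adjusted p = 0.00688). Without the batch the differences were 1.45 and 1.28 with an adjusted p of 0.857 each.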

How the results depend on the processing

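No gene was called without covariate under RLE size factors, no filter, a filter of 10 counts in every library, the replicate block, the fit of the 8 libraries alone, no minimum fold change or on leaving out any library (0 to 0). DESeq2 called 10 genes, DESeq2 with the batch 8, edgeR with the batch 4 and the fit of batches D and E alone 16. Leaving out 1 library from the batch fit gave 1 to 66 calls, 66 without Mut.oligo library 3 and 15 without Mut.oligo library 2. The causes were not tested. Genes at an unadjusted p under 0.05 numbered 1780, 746 by DESeq2 with the batch, 1076 to 2099 on leaving out 1 library (1077 without Mut.oligo library 4 and 1076 without untreated library 2) and 982 to 2353 with the batch (982 without Mut.oligo library 1 and 1116 without untreated library 4). Lower members of the activity lists numbered 12, 26 with the batch, 25 by DESeq2 with the batch, 24 in batches D and E alone, 5 to 18 on leaving out 1 library and 22 to 27 with the batch. The count differing between times was 0 without and 2 with the batch. Replicate numbers did not pair the samples by the labels, as same-numbered libraries came from different batches. Correlations of same-numbered deviations were -0.49, -0.14, 0.35 and 0.58, against 0.52 and 0.51 for the same batch. The highest was of a same-numbered pair, so these correlations cannot decide between the pairings. The replicate block gave 0 calls with 877 genes higher and 716 lower at an unadjusted p under 0.05.

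For 93 named genes, 2188 of 2309 values kept direction and side of the threshold, 57 passed it and 64 had the opposite sign, over 15 genes. In batches D and E alone the opposite values were -0.04 for Egr3 and Arc, -0.76 for Il6, -0.30 for Il1a, -0.16 for Cxcl2, -0.06 for Ccl3, -0.26 for Tnf, -0.36 for Ifit1 and -0.03 for Gfap. DESeq2 with the batch gave -0.07 for Il6, -0.01 for Tnf and -0.12 for Ifit1, edgeR with the batch -0.18 for Il6 and -0.15 for Ifit1, and the filter of 10 counts 0.01 for Myd88. Leaving out 1 library without the batch gave ranges that crossed 0: Fosb -0.95 to 0.01, Arc -0.05 to 0.12, Myd88 -0.08 to 0.09, Irak4 -0.47 to 0.08, Il6 -0.19 to 1.02, Cxcl2 -0.22 to 0.27, Ccl3 -0.04 to 0.44, Tnf -0.16 to 0.37, Ifit1 -0.21 to 0.92, Igf2bp1 -0.03 to 0.38, Kdr -0.40 to 0.43 and Pdgfra -0.45 to 0.09. Doing so with the batch gave opposite values for Egr3 (-0.08), Arc (-0.16 and -0.03), Il6 (-0.56, -0.40, -0.27, -0.20, -0.17 and -0.05), Il1a (-0.26), Cxcl2 (-0.08), Tnf (-0.15, -0.06 and -0.02), Ifit1 (-0.36, -0.20, -0.18, -0.15, -0.14, -0.05 and -0.02), Igf2bp1 (-0.20), Gfap (-0.10, -0.02 and -0.01) and Pdgfra (0.20). Counts near 3 per library limit what can be said of Il6 and Tlr8.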
